A study of Homo sapiens with 16 samples.

Results

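NF-kB is a family of transcription factors built from pairs of the subunits NFKB1, NFKB2, RELA, RELB and REL. The 10 genes described here are these 5 subunits, the inhibitors NFKBIA and NFKBIE, and the regulators BIRC3, TRAF1 and MAP3K14. They were taken by gene symbol from the gene expression table, and all 10 were found among the 63677 identifiers of the count table. All 10 also passed the filter on low counts in both cell lines.

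The values come from poly-A RNA-Seq of MiaPaCa2 and PANC1, established lines from human pancreatic ductal adenocarcinoma, grown in DMEM with serum. Each line had 4 groups of 2 libraries at 24 hours, namely untreated control, 40 nM gemcitabine, 50 µM genistein and both drugs at these doses (co-treatment). Gemcitabine is a nucleoside analogue that blocks DNA replication, and genistein is a plant isoflavone that binds estrogen receptors. The study asked how genistein changes the response to gemcitabine, and each line stands for 1 culture model rather than for tumors with their surrounding cells. Genistein was dissolved in DMSO, and whether the untreated controls received DMSO is not given in the sources used here. The labels number the replicates I and II. The methods of the study call them biological replicates without saying how the cultures were kept apart. The p values rest on the spread between the 2 libraries of a group, shared over all groups in the fit. The fit also draws the spread of each gene toward that of the other genes tested.

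In resting cells the NF-kB pairs are held in the cytoplasm by inhibitors of the IκB family, of which NFKBIA encodes IκBα and NFKBIE encodes IκBε. In the canonical route, receptors such as those for TNF or IL-1 activate the IκB kinase, IκBα is degraded, and pairs containing RELA enter the nucleus. In the noncanonical route, the kinase NIK, encoded by MAP3K14, accumulates and drives cleavage of the NFKB2 precursor, which frees pairs of NFKB2 and RELB. TRAF and cIAP proteins, among them the product of BIRC3, mark NIK for degradation. NFKBIA, NFKBIE, NFKB2, RELB, BIRC3 and TRAF1 are themselves textbook NF-kB target genes, which is why such genes are called feedback genes. In pancreatic cancer cells NF-kB is often found active, and it is known for promoting survival under chemotherapy. Transcript levels do not report where the proteins are or whether they bind DNA.

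The sequences shown first are the places where these genes carry the DNA word that NF-kB binds, because 5 of the members share it. Whether the members with a match moved together was not tested. The κB consensus, a word of 10 bases with several ambiguous positions, was searched on both strands in the 250 bases before each annotated start of the RefSeq promoter table, and matches could overlap each other. The table held 14 start windows for 8 of the members. RELB and NFKBIE had no entry. A match was found in 6 of these 14 windows and in 5 of the 8 genes, against 5.21% of the 35116 windows and 6.28% of the 27305 genes in the whole table. A match describes letters and is not a shown binding site, and the absence of a match in the windows of RELA, TRAF1 and MAP3K14 says only that these letters are not in these windows.

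The windows were placed on GRCh37 by exact match. Each line below is 30 bases around a match, read 5′ to 3′ on the strand of the gene, with the match in capitals.
NFKB1 (chr4:103422457-103422486, plus strand): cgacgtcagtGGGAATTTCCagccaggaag
NFKB2 (chr10:104154218-104154247, plus strand): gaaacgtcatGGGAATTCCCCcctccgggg
NFKB2 (chr10:104155431-104155460, plus strand): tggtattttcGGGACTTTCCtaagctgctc
REL (chr2:61108652-61108681, plus strand): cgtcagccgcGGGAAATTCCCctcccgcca
BIRC3 (chr11:102188006-102188035, plus strand): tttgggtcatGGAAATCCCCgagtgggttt
BIRC3 (chr11:102188070-102188099, plus strand): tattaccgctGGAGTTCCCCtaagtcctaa
NFKBIA (chr14:35874017-35874046, minus strand): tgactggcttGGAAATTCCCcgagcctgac

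The NFKB1 match began 49 bases before its start, the REL match 47 bases, the BIRC3 matches 199 and 135 bases and the NFKBIA match 81 bases. The 2 printed NFKB2 sites lie before different annotated starts of the gene, the later 1 at 21 bases, and 2 further NFKB2 sites, 78 and 176 bases before these starts, are not printed. In REL and NFKB2 matches on the 2 strands overlapped, so that the capitals run over 11 bases. The 250 bases that hold the first printed NFKB2 site lie wholly in annotated exons of the gene. In the REL window 83 bases lie in its annotated exons, the match among them. For NFKBIA, the member that fell where other members rose, the 250 bases before the start are shown whole (chr14:35873956-35874205, minus strand, outside the annotated exons of the gene).
NFKBIA: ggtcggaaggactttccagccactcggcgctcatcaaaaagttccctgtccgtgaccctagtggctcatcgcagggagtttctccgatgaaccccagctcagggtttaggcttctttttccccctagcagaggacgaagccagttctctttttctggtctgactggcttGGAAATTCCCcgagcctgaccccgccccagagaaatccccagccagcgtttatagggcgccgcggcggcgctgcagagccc

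Reads counted on genes numbered 13101557 to 22254419 per MiaPaCa2 library and 12943482 to 31991860 per PANC1 library, and the members had from 38 to 5325 reads per library. The replicates of every group differed beyond sampling noise. A trend of counts with GC content varied between libraries. On the log2 scale per 10 percentage points of GC, the slopes were 0.30 and -0.07 in the 2 PANC1 controls and -0.16 and 0.24 in the PANC1 co-treatment libraries, the pair furthest apart. The MiaPaCa2 co-treatment libraries had 0.05 and 0.29. In MiaPaCa2 the slopes were -0.24 and -0.14 in the controls and 0.15 and 0.06 with gemcitabine. The members span this range, from 36.6% GC in the exons of BIRC3 and 38.0% in REL to 63.2% in RELB, so a fit with each library's GC trend removed is given beside results whose call it changes. The part of GC content in the uncorrected values was not tested further. Of the epithelial markers, KRT8, KRT18 and KRT19 were high in both lines (56.5 to 1080 FPKM), whereas EPCAM was at 0 reads and CDH1 at 0 to 2 reads in MiaPaCa2. The immune markers PTPRC, CD3E and LYZ had at most 6 reads in any library. The immune marker CD14 reached 4.98 FPKM in MiaPaCa2 and 1.48 FPKM in PANC1. The endothelial marker CDH5 reached 1.72 FPKM in MiaPaCa2 and had at most 1 read in PANC1. The endothelial markers PECAM1 and VWF had at most 4 reads in any library. Of the mesenchymal markers, VIM was high in both lines (1400 to 3880 FPKM), and FN1 reached at most 2.57 FPKM. CDH2 had at most 1 read in MiaPaCa2 and 559 to 1434 reads in PANC1. In bulk RNA, fewer cells of a type and less RNA per cell cannot be told apart.

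In the untreated lines, NFKBIA and RELA had the highest levels of the 10 genes per length and REL the lowest. Levels between genes are given in FPKM, the authors' values scaled to transcript length and to the size of the library. In untreated MiaPaCa2, NFKBIA stood at 151 ± 9.62 FPKM (SD, n = 2) and RELA at 40.1 ± 9.26 FPKM. NFKB1 (19.4 ± 0.604 FPKM), NFKB2 (17.3 ± 1.78 FPKM), MAP3K14 (13.6 ± 0.67 FPKM) and NFKBIE (13.1 ± 2.0 FPKM) followed. Of these 4 only MAP3K14 and NFKBIE had libraries that overlapped. RELB (6.73 ± 0.0826 FPKM) came next, then TRAF1 (2.88 ± 0.269 FPKM) and BIRC3 (2.67 ± 0.181 FPKM), whose libraries overlapped, and REL stood at 1.47 ± 0.413 FPKM.

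In untreated PANC1, RELA stood at 123 ± 28.1 FPKM and NFKBIA at 124.8 and 79.4 FPKM in its 2 libraries, so that the libraries of the 2 genes overlapped. NFKBIE (30.3 ± 4.71 FPKM) and NFKB2 (28.8 ± 4.37 FPKM) had overlapping libraries, as had NFKB1 (19.0 ± 2.45 FPKM) and MAP3K14 (19.0 ± 3.69 FPKM). RELB followed at 15.3 and 10.8 FPKM, BIRC3 at 8.0 ± 3.63 FPKM, TRAF1 at 2.43 ± 0.392 FPKM and REL at 0.692 ± 0.226 FPKM. Over all 16 libraries NFKB1 was the steadiest, with a highest level 1.55 times its lowest in FPKM, and RELB and BIRC3 the most variable, at 6.58 and 6.38 times. For RELA the FPKM and the counts went apart in the MiaPaCa2 genistein libraries, which had 85.8 and 41.2 FPKM but 74.5 and 61.7 CPM, the library-size-scaled counts.

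**Figure D1:**
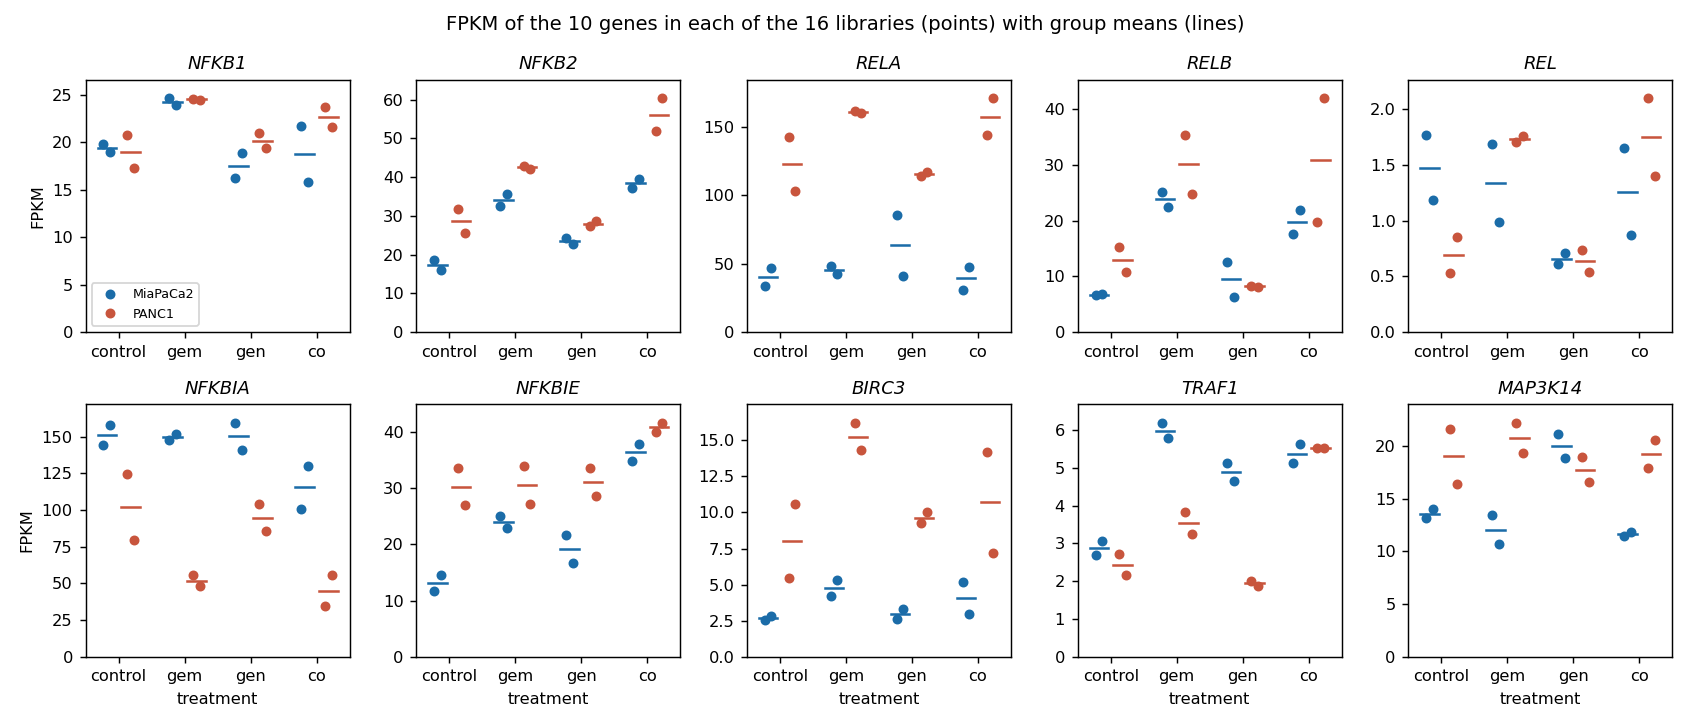
Each panel plots 1 gene, with FPKM on the vertical axis from 0 and the treatments on the horizontal axis (gem, gemcitabine; gen, genistein; co, co-treatment); each point is a library and each line the mean of 2 libraries. NFKB2 and RELB lie higher after gemcitabine and co-treatment in both lines, and NFKBIA in PANC1 drops from 124.8 and 79.4 FPKM in the controls to 55.4 and 47.9 FPKM with gemcitabine.

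The first comparison asks which members changed when gemcitabine alone was added. A gene counted as called where its limma-voom p, adjusted by Benjamini-Hochberg over all genes tested, was 0.05 or less, its log2 fold change reached 0.4 in either direction and its level averaged over 1 FPKM in the treated libraries. Between the untreated lines, the level had to average over 1 FPKM in either line. For the interaction of the drugs and for differences in response between the lines, the adjusted p alone decided, with no fold or FPKM criterion. Adjusted p values are from limma-voom unless another tool is named. In MiaPaCa2, gemcitabine raised 5 of the 10 members, NFKB2, RELB, NFKBIE, BIRC3 and TRAF1, and lowered none. Among all 16064 genes tested, 29.6% were called and 15.0% were called higher. In PANC1, gemcitabine raised RELB and REL and lowered NFKBIA, 3 of 10 members against 7.52% of 16909 genes called, 4.49% higher and 3.03% lower. The members' median log2 fold change was 0.49 in MiaPaCa2 and 0.25 in PANC1, beside -0.01 and 0.03 over all genes tested.

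Among the subunits, RELB, the partner of NFKB2 in the noncanonical route, had the largest change in MiaPaCa2. Its counts scaled to library size (CPM) were 11.15 and 11.99 in the MiaPaCa2 controls and 36.1 and 32.7 with gemcitabine. The groups did not overlap, and RELB rose by 1.57 on the log2 scale (SE 0.19, adjusted p = 7.51e-05). In PANC1, RELB had 23.1 and 16.7 CPM in the controls and 48.4 and 37.03 CPM with gemcitabine. These groups did not overlap either, and the rise was 1.12 (SE 0.25, adjusted p = 0.0367). NFKB2, whose precursor is cut to give the partner of RELB, had 53.1 and 51.8 CPM in the MiaPaCa2 controls and 100.8 and 103.9 CPM with gemcitabine. Both treated libraries lay well above both controls, a rise of 0.96 (SE 0.10, adjusted p = 2.65e-05). In PANC1, NFKB2 had 101.3 and 83.4 CPM in the controls and 133.7 and 126.6 CPM with gemcitabine, and its log2 fold change of 0.51 (SE 0.14) did not pass, with an adjusted p of 0.0644. After GC correction it was 0.67 in PANC1 and passed (adjusted p = 0.00119).

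NFKB1 and RELA moved less in both lines, whereas REL rose in PANC1. NFKB1 gave log2 fold changes of 0.03 in MiaPaCa2 (SE 0.09, adjusted p = 0.82) and 0.14 in PANC1 (SE 0.10, adjusted p = 0.436). RELA, the main activating subunit, gave 0.10 in MiaPaCa2 (SE 0.12, adjusted p = 0.529) and 0.06 in PANC1 (SE 0.13, adjusted p = 0.808). After GC correction NFKB1 was at 0.30 in MiaPaCa2 (adjusted p = 0.0123) and RELA at 0.20 in PANC1 (adjusted p = 0.0358), both under the fold for a call. The corrected values were -0.01 for NFKB1 in PANC1 and -0.13 for RELA in MiaPaCa2 (adjusted p = 0.979 and 0.18). REL, best known from lymphocytes, had 8.95 and 6.34 CPM in the MiaPaCa2 controls and 8.8 and 6.72 CPM with gemcitabine, so the groups overlapped (log2 fold change 0.01, SE 0.25, adjusted p = 0.974). In PANC1, REL had 3.13 and 4.91 CPM in the controls and 9.19 and 10.1 CPM with gemcitabine. The PANC1 groups did not overlap, and REL rose by 1.26 (SE 0.25, adjusted p = 0.0247), although these are low levels of 64 to 205 reads per library. REL shares 33.3% of its annotated exon bases with a long noncoding RNA on the same strand, and reads of the 2 genes may not be told apart.

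Of the inhibitors, NFKBIA was called in PANC1 alone and NFKBIE in MiaPaCa2 alone, and the test of the difference between the lines is given below. NFKBIA had 127.2 and 130.5 CPM in the MiaPaCa2 controls and 111.6 and 116.7 CPM with gemcitabine, a log2 fold change of -0.17 (SE 0.09) that did not pass (adjusted p = 0.135). In PANC1, NFKBIA had 87.7 and 74.2 CPM in the controls and 42.5 and 44.2 CPM with gemcitabine. Both treated PANC1 libraries were well below both controls, and NFKBIA fell by 0.88 on the log2 scale (SE 0.14, adjusted p = 0.0112). NFKBIE, the slower inhibitor of the pair, had 14.1 and 14.7 CPM in the MiaPaCa2 controls and 27.3 and 25.4 CPM with gemcitabine. The groups did not overlap, and NFKBIE rose by 0.87 (SE 0.18, adjusted p = 0.00236). In PANC1, NFKBIE stood at 38.0 and 29.9 CPM without and 34.7 and 29.2 CPM with gemcitabine, and these groups overlapped (log2 fold change -0.07, SE 0.19, adjusted p = 0.851).

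Of the regulators, TRAF1, an adaptor that binds cIAP proteins at TNF receptors, had 17.2 and 17.0 CPM in the MiaPaCa2 controls and 32.7 and 30.7 CPM with gemcitabine. It rose by 0.89 (SE 0.12, adjusted p = 0.000165). In PANC1 its log2 fold change was 0.37 (SE 0.15, adjusted p = 0.179), and 0.48 after GC correction (adjusted p = 0.00779). BIRC3, a ubiquitin ligase that protects from cell death, had 14.4 and 13.8 CPM in the MiaPaCa2 controls and 22.8 and 29.8 CPM with gemcitabine. The groups were apart, a rise of 0.88 (SE 0.21, adjusted p = 0.00549) that missed the threshold without gemcitabine replicate II (log2 fold change 0.69, adjusted p = 0.0661). In PANC1, BIRC3 had 32.1 and 64.5 CPM in the controls and 72.7 and 80.02 CPM with gemcitabine. The 2 PANC1 controls lay further apart than replicate II lay from the treated libraries, and the log2 fold change of 0.70 (SE 0.31) did not pass (adjusted p = 0.21), whereas the GC-corrected value of 0.50 did (adjusted p = 0.0178). MAP3K14, which encodes NIK, gave -0.29 in MiaPaCa2 (SE 0.12, adjusted p = 0.0635) and 0.04 in PANC1 (SE 0.17, adjusted p = 0.90). After GC correction MAP3K14 in MiaPaCa2 was at -0.54 and passed (adjusted p = 0.00024).

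With GC correction, 6 members were called in each line, and the direction of every member called without it was the same. The correction lowered the MiaPaCa2 changes of the GC-rich members (RELB from 1.57 to 1.16, NFKB2 from 0.96 to 0.62 and NFKBIE from 0.87 to 0.55) and raised that of GC-poor BIRC3 from 0.88 to 1.35. In PANC1, leaving out gemcitabine replicate I or replicate II left 0 of the 3 calls, with log2 fold changes of 0.93 and 1.32 for RELB, 1.33 and 1.20 for REL and -0.86 and -0.91 for NFKBIA. Without PANC1 control replicate I, RELB (1.33) and NFKBIA (-0.78) passed and REL (0.96, adjusted p = 0.066) did not, and without control replicate II, REL (1.60) and NFKBIA (-1.04) passed and RELB (0.85, adjusted p = 0.0927) did not. The genistein libraries are not compared here and enter through the shared spread, the scaling and the filter. Without genistein replicate I or II, NFKBIA (-0.9) alone was left, with RELB at 1.1 and REL at 1.25. On log2(FPKM + 1) limma called 0 members in PANC1.

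**Figure D2:**
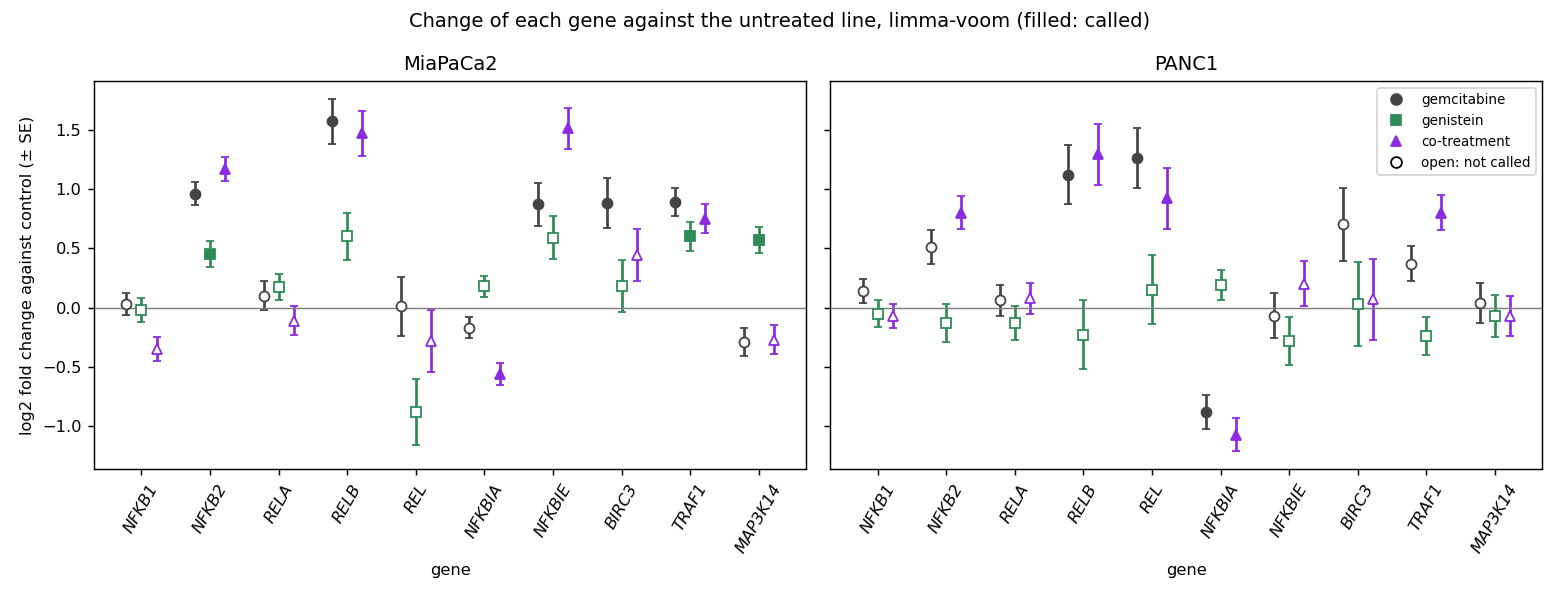
The log2 fold change against the untreated control of the same line is plotted for each gene, with SE bars, for gemcitabine (circles), genistein (squares) and co-treatment (triangles); filled symbols were called and open symbols were not. RELB is at 1.57 in MiaPaCa2 and 1.12 in PANC1 with gemcitabine, and NFKBIA in PANC1 is at -0.88 with gemcitabine and -1.07 with co-treatment.

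**Figure D3:**
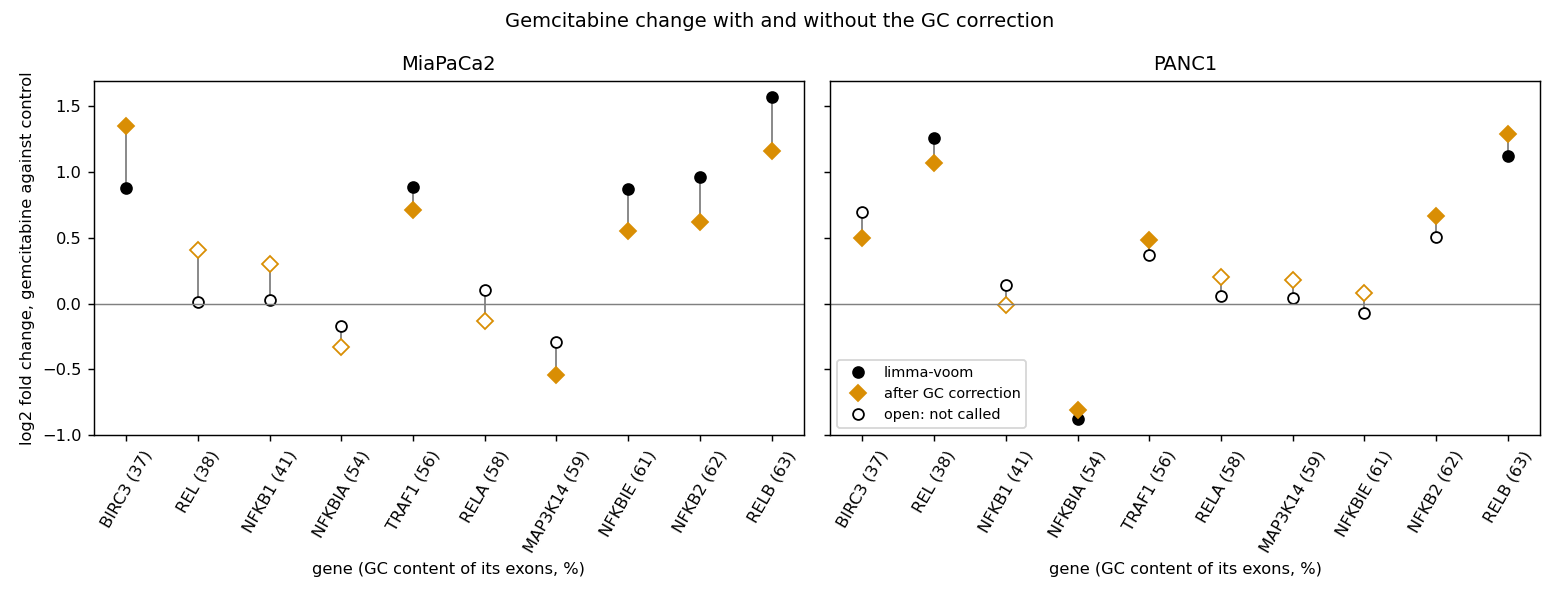
The log2 fold change of gemcitabine against control is plotted for each gene in order of the GC content of its exons, as fitted (circles) and after GC correction (diamonds), filled where called. In MiaPaCa2 the correction lowers the GC-rich genes at the right, such as RELB from 1.57 to 1.16, and raises the GC-poor genes at the left, such as BIRC3 from 0.88 to 1.35.

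Genistein alone raised 3 of the 10 members in MiaPaCa2, NFKB2, TRAF1 and MAP3K14, where 8.31% of all genes were called and 4.18% were called higher. The members' median log2 fold change was 0.31, beside 0.0 over all genes. MAP3K14 had 69.4 and 73.4 CPM in the controls and 101.9 CPM in the lower of the genistein libraries. Both genistein libraries lay above both controls, a rise of 0.57 (SE 0.11, adjusted p = 0.00795). TRAF1 rose from 17.2 and 17.0 CPM to 26.6 and 25.6 CPM, by 0.60 on the log2 scale (SE 0.12, adjusted p = 0.0111). NFKB2 rose to 74.2 and 69.3 CPM, by 0.45 (SE 0.11, adjusted p = 0.0196). None of these groups overlapped. RELB (0.60, SE 0.20, adjusted p = 0.077) and NFKBIE (0.59, SE 0.18, adjusted p = 0.054) did not pass, and the 2 genistein libraries differed in both, with 22.4 and 14.5 CPM for RELB and 26.3 and 18.8 CPM for NFKBIE. REL was at 3.06 and 5.09 CPM against 8.95 and 6.34 CPM in the controls (log2 fold change -0.88, SE 0.28, adjusted p = 0.0653). The lower of these REL values rested on 38 reads.

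The 3 MiaPaCa2 calls with genistein depended on the libraries fitted. Without control replicate I, control replicate II or genistein replicate I, 0 members were called, with log2 fold changes from 0.41 to 0.61 and adjusted p values up to 0.141 for NFKB2, TRAF1 and MAP3K14, and 5 members were called without genistein replicate II or without either co-treatment library. MAP3K14 shares 15.1% of its exon bases with the antisense gene MAP3K14-AS1, and the strand setting of the counting is not given in the sources used here. On log2(FPKM + 1) limma called 0 members for genistein in MiaPaCa2. After GC correction 6 members were called higher, with RELB (0.59, adjusted p = 0.0103), NFKBIE (0.55, adjusted p = 0.00592) and BIRC3 (0.50, adjusted p = 0.0296) joining the 3.

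In PANC1 genistein alone called 0 of the 10 members with limma-voom, edgeR or DESeq2, and 0.0591% of all genes. None of the members had an unadjusted p under 0.05, which 19.2% of all genes had. The log2 fold changes ran from -0.28 for NFKBIE (SE 0.20) to 0.19 for NFKBIA (SE 0.13).

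Co-treatment against control asks how the members stood with both drugs. In MiaPaCa2, 4 members rose (NFKB2, RELB, NFKBIE and TRAF1) and NFKBIA fell, 5 of 10 where 40.5% of all genes were called, 20.3% higher and 20.2% lower. In PANC1, 4 members rose (NFKB2, RELB, REL and TRAF1) and NFKBIA fell, 5 of 10 where 17.1% were called, 10.2% higher and 6.90% lower. The members' medians were 0.16 and 0.14, beside -0.01 and 0.01 over all genes. Each line's co-treatment and single-drug comparisons share the same 2 controls.

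NFKBIE rose most in MiaPaCa2 with both drugs. It had 36.1 and 46.6 CPM against 14.1 and 14.7 CPM in the controls. Both treated libraries were above 2 times both controls, a log2 fold change of 1.51 (SE 0.17, adjusted p = 1.74e-05). RELB had 28.7 and 35.7 CPM in MiaPaCa2 (1.47, SE 0.19, adjusted p = 5.23e-05) and 37.7 and 58.9 CPM in PANC1 (2.44-fold, adjusted p = 0.0121). NFKB2 had 109.3 and 127.5 CPM in MiaPaCa2 (1.17, SE 0.10, adjusted p = 2.01e-06) and 140.4 and 178.1 CPM in PANC1 (0.80, SE 0.14, adjusted p = 0.00785). In both lines every co-treated library lay above every control for RELB and NFKB2. TRAF1 had 26.9 and 30.9 CPM in MiaPaCa2 (0.75, SE 0.12, adjusted p = 0.000275) and 30.1 and 30.8 CPM in PANC1 (0.80, SE 0.15, adjusted p = 0.01). The PANC1 controls had 19.8 and 15.7 CPM of TRAF1, so the groups were apart there too.

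NFKBIA fell with co-treatment in both lines. In MiaPaCa2 it had 82.2 and 92.7 CPM against 127.2 and 130.5 CPM in the controls, a log2 fold change of -0.56 (SE 0.09, adjusted p = 0.000253). In PANC1 it had 34.1 and 42.3 CPM against 87.7 and 74.2 CPM, a log2 fold change of -1.07 (SE 0.14, adjusted p = 0.00262). Every co-treated library lay below every control of its line, and the fall in PANC1 was called with each of the 8 libraries of the line left out in turn. REL in PANC1 had 9.12 and 6.38 CPM (0.92, SE 0.26, adjusted p = 0.0437). That call was lost without control replicate I (0.61, adjusted p = 0.122), without co-treatment replicate I and without any of the 4 single-drug libraries (adjusted p up to 0.179), and RELB in PANC1 missed the threshold without control replicate II (1.01, adjusted p = 0.052). With only the 4 libraries compared in the fit, NFKBIA alone was called in PANC1. NFKB1 in MiaPaCa2, at 55.2 and 53.7 CPM against 69.6 and 69.1 CPM, had an adjusted p of 0.00989 and a log2 fold change of -0.35 (SE 0.10), below the size needed for a call. After GC correction that value was 0.0 (adjusted p = 0.999), and 8 MiaPaCa2 members were called, BIRC3 (1.13) higher and RELA (-0.40) and MAP3K14 (-0.58) lower among them.

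Genistein added to gemcitabine is read from co-treatment against gemcitabine alone. In MiaPaCa2 NFKBIE rose from 27.3 and 25.4 CPM to 36.1 and 46.6 CPM, by 0.64 (SE 0.16, adjusted p = 0.0276). NFKBIE was the 1 member called of 10, where 5.88% of all genes were called and 4.05% were called higher. This call was lost in 5 of the 8 fits that left out a library (without either control, either gemcitabine library or co-treatment replicate II, with log2 fold changes down to 0.46 and adjusted p values up to 0.198). NFKBIA (-0.39, SE 0.09, adjusted p = 0.0243) and NFKB1 (-0.38, SE 0.10, adjusted p = 0.0349) passed on p and were just under the fold needed for a call, and NFKBIA was at -0.47 after GC correction (adjusted p = 0.000776) and called. In PANC1 0 members were called with limma-voom, edgeR or DESeq2, where 0.0177% of all genes were, and 1 member, TRAF1 (0.44, SE 0.15), had an unadjusted p under 0.05, against 13.4% of all genes.

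The interaction of the drugs asks whether co-treatment differed from the sum of the 2 single changes on the log2 scale. In MiaPaCa2 0 members passed with limma-voom, edgeR or DESeq2, where 0.0249% of all genes did. An unadjusted p under 0.05 was found for 6 members, NFKB1, RELA, RELB, NFKBIA, TRAF1 and MAP3K14, against 8.38% of all genes, and all 6 values were below 0. These were -0.74 for TRAF1 (SE 0.17, adjusted p = 0.228), -0.70 for RELB (SE 0.26, adjusted p = 0.506), -0.57 for NFKBIA (SE 0.13, adjusted p = 0.211), -0.56 for MAP3K14 (SE 0.16, adjusted p = 0.394), -0.38 for RELA (SE 0.16, adjusted p = 0.576) and -0.36 for NFKB1 (SE 0.14, adjusted p = 0.512). Both single-drug effects share the 2 MiaPaCa2 controls, which enter all 6 values alike. After GC correction NFKBIA (-0.52) and TRAF1 (-0.70) passed, both with an adjusted p of 0.0361, and with the replicate block added to the correction 0 passed. In PANC1 0 members passed with any of the 3 tools and 0% of all genes did with limma-voom, and TRAF1 (0.67, SE 0.22) alone had an unadjusted p under 0.05, where 4.92% of all genes had one.

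The untreated lines differed in 8 of the 10 members, in a comparison that called 52.3% of 17863 genes, 27.9% higher in PANC1 and 24.3% lower. RELA, NFKB2, RELB, NFKBIE, BIRC3 and MAP3K14 were higher in PANC1, and REL and NFKBIA were lower. RELA had 212.4 and 172.1 CPM in PANC1 against 58.8 and 60.6 CPM in MiaPaCa2, a log2 difference of 1.66 (SE 0.15, adjusted p = 5.4e-07). BIRC3 had 32.1 and 64.5 CPM against 14.4 and 13.8 CPM, a difference of 1.72 (SE 0.33, adjusted p = 0.000441). NFKBIE had 38.0 and 29.9 CPM against 14.1 and 14.7 CPM, a difference of 1.20 (SE 0.22, adjusted p = 0.000375). For these 3 genes each PANC1 library lay above each MiaPaCa2 library. NFKB2 was higher by 0.79 (SE 0.15, adjusted p = 0.000463), RELB by 0.73 (SE 0.30, adjusted p = 0.0445) and MAP3K14 by 0.44 (SE 0.17, adjusted p = 0.037).

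NFKBIA was lower in PANC1 by 0.69 on the log2 scale (a difference of -0.69, SE 0.12, adjusted p = 0.000168), with 87.7 and 74.2 CPM against 127.2 and 130.5 CPM. REL gave -0.92 (SE 0.28, adjusted p = 0.0115), with 3.13 and 4.91 CPM against 8.95 and 6.34 CPM. NFKB1 (-0.10, SE 0.09, adjusted p = 0.395) and TRAF1 (0.01, SE 0.15, adjusted p = 0.954) did not pass. The calls of the GC-rich members RELB and MAP3K14 were lost after GC correction, at 0.23 (adjusted p = 0.118) and at 0.20 (adjusted p = 0.0429, under the fold for a call), and that of NFKB2 dropped to 0.40 and still passed. Without PANC1 control replicate I or MiaPaCa2 control replicate I, 5 members were called, with RELB (0.45 and 0.63), REL (-0.72 and -0.71) and MAP3K14 (0.16 and 0.35) lost. RELB was lost in 7 of the 16 fits that left out a library (adjusted p up to 0.256) and MAP3K14 in 5 (adjusted p up to 0.39), among them those without MiaPaCa2 control replicate II (0.79, adjusted p = 0.103, and 0.48, adjusted p = 0.0849).

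**Figure D4:**
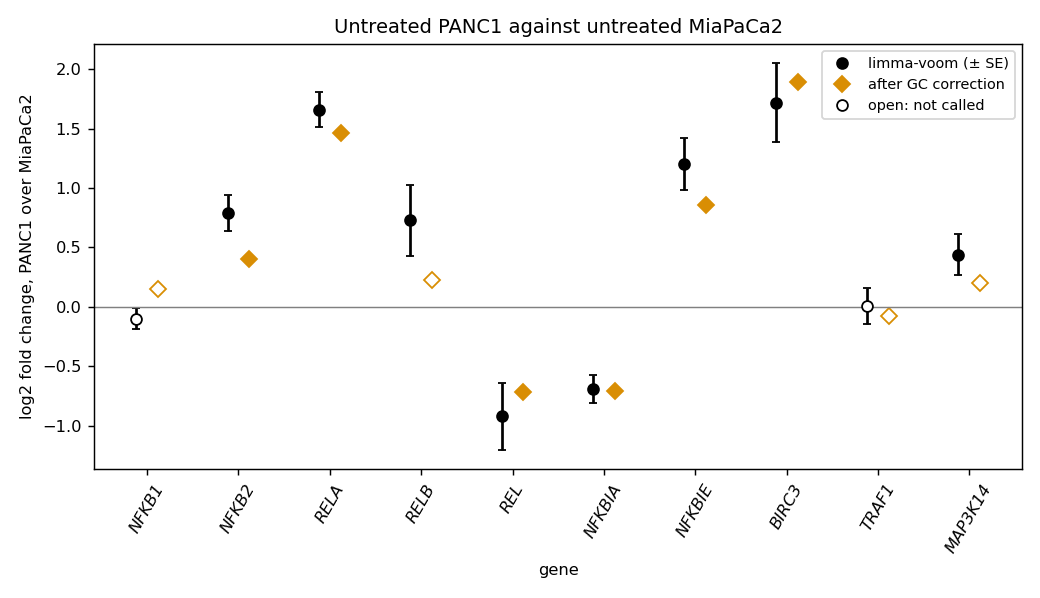
The log2 difference of untreated PANC1 over untreated MiaPaCa2 is plotted for each gene, as fitted with SE bars (circles) and after GC correction (diamonds), filled where called. RELA (1.66) and BIRC3 (1.72) are highest and REL (-0.92) lowest, and RELB drops from 0.73 to 0.23 with the correction.

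The gemcitabine response itself differed between the lines for 2 of the 10 members, NFKBIA and NFKBIE, in a test that 15.3% of all genes passed. For NFKBIA, the log2 fold change was lower in PANC1 than in MiaPaCa2 (difference -0.81, SE 0.17, adjusted p = 0.00991), and it was -0.60 after GC correction (adjusted p = 0.00095). For NFKBIE the difference was -1.04 (SE 0.31, adjusted p = 0.0381), and -0.57 after GC correction (adjusted p = 0.0089). The NFKBIA difference missed the threshold without MiaPaCa2 control replicate I (-0.75, adjusted p = 0.0557). That of NFKBIE did so in 9 of the 16 fits that left out a library, namely without either library of the MiaPaCa2 controls, the MiaPaCa2 gemcitabine group, the PANC1 gemcitabine group or the PANC1 genistein group, or without PANC1 control replicate I, with differences from -0.82 to -1.14 and adjusted p values up to 0.147. REL (1.14, SE 0.38, adjusted p = 0.059), TRAF1 (-0.61, SE 0.20, adjusted p = 0.0558), NFKB2 (-0.55, SE 0.20, adjusted p = 0.0853) and RELB (-0.54, SE 0.38, adjusted p = 0.349) did not pass with limma-voom. TRAF1 passed with edgeR (adjusted p = 0.0475) and DESeq2 (adjusted p = 0.0296), NFKB2 passed with DESeq2 (adjusted p = 0.0499) and not with edgeR (adjusted p = 0.0626), and REL and RELB passed with neither. After GC correction BIRC3 (from -0.28 to -0.91, adjusted p = 0.00362) and MAP3K14 (from 0.23 to 0.63, adjusted p = 0.00181) passed as well, while NFKB2 moved to -0.06 and RELB to 0.0. On log2(FPKM + 1) limma passed 0 members for this difference. For genistein 0 members passed the same test with limma-voom, 1 with DESeq2 and 0 with edgeR, and 0.0336% of all genes did with limma-voom. An unadjusted p under 0.05 was found for 5 members, NFKB2, REL, NFKBIE, TRAF1 and MAP3K14, against 11.5% of all genes. The member that passed with DESeq2 was TRAF1 (-0.88, SE 0.21 and adjusted p = 0.196 with limma-voom, adjusted p = 0.0165 with DESeq2), which also passed after GC correction (-0.74, adjusted p = 0.012).

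Other genes of the pathway were counted in 4 lists, which hold 19 ligands and receptors, 17 adaptors and kinases, 11 other inhibitors and brakes and 22 target genes. With gemcitabine in MiaPaCa2, 2 ligands and receptors were higher and 3 lower of 13 tested, 1 adaptor was higher of 16, 4 brakes were higher of 10, and 4 targets were higher and 1 lower of 13, where 29.6% of all genes were called and 15.0% were called higher. The lists' median log2 fold changes were 0.25, -0.05, 0.34 and 0.22 in that order, beside -0.01 over all genes. CD40 (1.0) and TNFRSF1B (0.81), receptors of the TNF family, rose, and the main TNF receptor gene TNFRSF1A fell by 0.99. TNFAIP3, which encodes the ubiquitin-editing brake A20, rose by 1.09 (SE 0.22, adjusted p = 0.00224). Among the targets CD83 (1.76) and IER3 (1.24) rose and the chemokine gene CXCL1 fell by 0.56.

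With gemcitabine in PANC1, 1 receptor was lower of 9 tested, 0 adaptors of 16 were called, 1 brake was higher of 10, and 3 targets were higher and 3 lower of 15, where 4.49% of all genes were higher and 3.03% lower. The medians were 0.01, 0.12, 0.09 and -0.20, beside 0.03 over all genes. TNFRSF1A fell by 0.92 (SE 0.11, adjusted p = 0.00555) and TNFAIP3 rose by 1.53 (SE 0.16, adjusted p = 0.00328). BCL2A1, a survival gene of the BCL2 family, rose by 1.43, and CXCL8, the gene of interleukin 8, rose by 1.72 from a low level of 14 and 30 reads. CXCL1 fell by 1.07 and TNFAIP2 by 0.82.

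With co-treatment in MiaPaCa2, 5 ligands and receptors were higher and 3 lower of 13 tested, 2 adaptors higher and 5 lower of 16, 6 brakes higher and 0 lower of 10, and 3 targets higher and 1 lower of 13, where 20.3% of all genes were higher and 20.2% lower. NFKBIZ (1.11) and TNFAIP3 (1.22) rose among the brakes, and TNFRSF11A, the RANK receptor gene, rose by 3.47 from 18 and 19 reads to 216 and 215. In PANC1, 1 ligand or receptor was higher and 2 lower of 9, 1 adaptor lower of 16, 2 brakes higher of 10, and 3 targets higher and 5 lower of 15, where 10.2% of all genes were higher and 6.90% lower. The lists' medians were 0.43, -0.13, 0.49 and -0.01 in MiaPaCa2 and 0.01, 0.03, 0.23 and -0.07 in PANC1, beside -0.01 and 0.01 over all genes. TNFAIP3 rose by 1.93 (SE 0.16, adjusted p = 0.00067) and the deubiquitinase gene CYLD by 0.70, while CXCL1 fell by 2.1 and CCL2 by 1.12. When genistein was added to gemcitabine in MiaPaCa2, the receptor genes IL1RAP (0.76) and TNFRSF11A (0.88) and the brake NFKBIZ (0.52) rose, and the targets CXCL8 and PLAU fell by 0.83 and 0.60. No listed gene was called in PANC1 for genistein alone or for genistein added to gemcitabine.

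With genistein alone in MiaPaCa2, 2 ligands and receptors were higher of 13 tested, 1 adaptor was lower of 16, 0 brakes of 10 were called, and 2 targets were higher and 1 lower of 13, where 8.31% of all genes were called and 4.18% were called higher. The lists' medians were 0.17, -0.05, 0.18 and 0.05, beside 0.0 over all genes. TNFRSF12A, the TWEAK receptor gene, rose by 0.81 and CD40 by 0.49 (0.39 and not called after GC correction), and BIRC2, a relative of BIRC3, fell by 0.65.

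Single genes of the lists differed widely between the untreated lines. LTBR, the lymphotoxin receptor gene that signals through NIK, had 25 and 25 reads in PANC1 and 3064 and 2598 in MiaPaCa2, a log2 difference of -7.63 (SE 0.29, adjusted p = 1.73e-10). TNFRSF11A was higher in PANC1 by 5.11 (SE 0.22, adjusted p = 4.39e-10). ICAM1 and CCL2 had 1 and 1 reads and 2 and 1 reads in MiaPaCa2, against 3626 and 4826 reads and 1574 and 2601 reads in PANC1. TNFSF12, the TWEAK ligand gene, had 0 reads in both MiaPaCa2 libraries and 306 and 347 in PANC1, at least 61.9-fold higher in PANC1 against a floor of 3 reads per library. CXCL8 was lower in PANC1, with a log2 difference of -6.63 (SE 0.35, adjusted p = 2.89e-09). Over the lists, 4 ligands and receptors were higher and 6 lower in PANC1 of 14 tested, 7 adaptors and kinases higher and 2 lower of 16, 4 brakes higher and 3 lower of 10, and 7 targets higher and 6 lower of 17, where 27.9% of all genes were higher and 24.3% lower. The medians were -0.97, 0.49, 0.08 and 0.32, beside 0.06 over all genes.

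The isoform values, in FPKM estimated by the authors, gave the same leading transcript in both lines for 8 of the 10 genes. The leading NFKB2 transcript, ENST00000189444, held a median of 62.4% of the gene's isoform FPKM in MiaPaCa2 and 60.3% in PANC1. For NFKBIE these medians were 72.2% and 74.1% (ENST00000443607) and for BIRC3 74.7% and 76.7% (ENST00000263464). TRAF1 differed, with ENST00000540010 leading in MiaPaCa2 at a median of 44.7% and ENST00000373887 in PANC1 at 73.3%, but single libraries ranged from 29.8% to 70.4% and from 33.9% upward. NFKBIA differed too, but in PANC1 the medians of its 2 leading transcripts were nearly equal. There ENST00000556664, annotated as a retained intron, held medians of 38.1% in MiaPaCa2 (25.8% to 46.6%) and 26.7% in PANC1 (18.0% to 38.1%). The medians of the protein-coding ENST00000216797 were 29.2% and 27.1%. Short reads divide poorly among isoforms, and these shares were not tested.

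The genes whose log2 CPM ran most like a member over the 8 libraries of a line are given as a description, since the 8 points fall into 4 treatment groups and share libraries and depth. In MiaPaCa2, NFKB2 ran most like LZTS3 and ITM2C (r = 0.999 each), RELB like GPRIN1 (r = 0.99), and TRAF1 like TEAD3 (r = 0.99) and IER3 (r = 0.985), among 14296 genes compared. In PANC1, RELB ran most like N4BP3 (r = 0.998), NFKB2 like C1QL4 (r = 0.995) and NFKBIA like NEK6 (r = 0.997), among 14909 genes. NFKB1 had the weakest nearest neighbour in PANC1, SUGT1P2 at r = 0.941.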

How the data were processed

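The members and the pathway lists were chosen with earlier results of these data known. The authors prepared stranded poly-A libraries, mapped single reads to GRCh37 with TopHat 2.0.4, removed multiply aligned reads with Picard 1.29 and counted with HTSeq 0.6.1, and the deposited counts are raw whole numbers. The deposited FPKM values per gene and isoform were made by the authors with Cufflinks 2.1.1, and 242 rows with repeated identifiers were summed. The annotation release and the strand setting are not given in the sources used here. Groups came from the labels.

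Counts were filtered with filterByExpr, scaled by TMM (edgeR 4.0.16) and fitted with limma-voom (limma 3.58.1, R 4.3.3), with the 8 libraries of a line in 1 model and all 16 for comparisons of lines. P values were adjusted by Benjamini-Hochberg over all genes tested. CPM are TMM-scaled. The GC correction removed a loess trend (span 0.3) of log2 CPM on exonic GC content from GENCODE v44 lifted to GRCh37, with GC values for 98.1% and 98.0% of the genes tested. Alternatives tried were DESeq2 1.42.0, the quasi-likelihood test of edgeR, other scalings and filters, log2(FPKM + 1) and log2(FPKM + 0.1) in limma, other sets of libraries, the replicate block and each library left out in turn.

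The text names the 10 members always, up to 2 called rises and 2 called falls per pathway list and comparison, and the genes most like a member by Pearson r. Simulated counts with known changes were used to test the fit for gemcitabine against control. In MiaPaCa2 47.8% of 1.5-fold, 89.6% of 2-fold and 98.5% of 4-fold changes were recovered. In PANC1 the shares were 7.46%, 58.2% and 87.9%, so fewer calls in PANC1 do not by themselves show a smaller response. Totals ran from 12943482 to 31991860 reads per library, and the replicates of a group differed by more than counting error (chi-square per degree of freedom 2.7 to 32).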

Additional observations from a re-analysis of the deposited data

Results flagged for a closer look

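With gemcitabine, the log2 fold change of NFKBIA was -0.88 in PANC1 and -0.17 in MiaPaCa2, and the test of this difference between the cell lines passed (-0.81, SE 0.17, limma-voom adjusted p = 0.00991). For NFKBIE the changes were -0.07 in PANC1 and 0.87 in MiaPaCa2, and their difference passed too (-1.04, SE 0.31, limma-voom adjusted p = 0.0381). The differences come from the model of all 16 libraries and the changes from the model of each line. The NFKBIE difference missed the threshold with the replicate block (limma-voom adjusted p = 0.0755), and neither difference was called on log2(FPKM + 1) or log2(FPKM + 0.1). Both PANC1 controls enter both differences, and control replicate I has the highest GC slope of the 8 PANC1 libraries (0.30). Without control replicate I the differences were -0.64 for NFKBIA and -0.82 for NFKBIE. Without control replicate II they were -1.01 and -1.3. The part of the GC slope in these values was not tested.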

How the results depend on the processing

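The 30 called member results gave 382 values under alternatives that kept all libraries of the comparison, of which 338 were still called, 44 kept their direction and were not called, and 0 reversed. Among these alternatives was the same fit without the FPKM criterion, under which the 30 results could not lose their call. With 1 library left out, 256 of 304 values were still called and 0 reversed. GC correction called 6 members for genistein in MiaPaCa2 (3 as reported), 8 for co-treatment in MiaPaCa2 (5), 2 for genistein added to gemcitabine in MiaPaCa2 (1), 6 for gemcitabine in PANC1 (3), 2 for the MiaPaCa2 interaction (0), 4 for the difference in gemcitabine response (2) and 1 for that in genistein response (0). GC correction with the replicate block gave the same counts, 6, 8, 2, 6, 4 and 1, except 0 for the MiaPaCa2 interaction and 5 for the untreated lines (8 as reported). Both FPKM scales, log2(FPKM + 1) and log2(FPKM + 0.1), called 0 members for genistein and 0 for genistein added to gemcitabine in MiaPaCa2, 0 for gemcitabine in PANC1 and 0 for the difference in gemcitabine response. DESeq2 called 5 members for genistein in MiaPaCa2, 4 for the gemcitabine difference and 1 for the genistein difference, and edgeR called 5 for genistein in MiaPaCa2. All 16 libraries in 1 model called 1 member for genistein in MiaPaCa2 and 0 for genistein added to gemcitabine, library size alone called 3 for the latter, and a fit of only the 4 libraries compared called 5 for genistein in MiaPaCa2 and 1 for co-treatment in PANC1. For these shifts the cause was not tested.

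The differences between replicates I and II were correlated across genes between the groups of a line. The correlations ran from -0.275 to 0.139 in MiaPaCa2 and from -0.535 to 0.291 in PANC1. Trends of single libraries, such as that with GC content, enter these values, so they cannot show whether the numbers pair the libraries. The replicate block called 5 members for gemcitabine, 3 for genistein, 5 for co-treatment and 0 for genistein added to gemcitabine in MiaPaCa2, 1 for gemcitabine, 0 for genistein, 4 for co-treatment and 0 for genistein added in PANC1, 7 between the untreated lines, 0 for either interaction, 1 for the gemcitabine difference (NFKBIA, with NFKBIE at a limma-voom adjusted p of 0.0755) and 0 for the genistein difference.

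With each library left out in turn, the counts ran from 0 to 5 for genistein and 0 to 2 for genistein added to gemcitabine in MiaPaCa2, 0 to 4 for gemcitabine in PANC1, 5 to 8 between the untreated lines, 0 to 5 for the gemcitabine difference (0 without MiaPaCa2 control replicate I, 5 without PANC1 control replicate II) and 0 to 2 for the genistein difference (2 without PANC1 control replicate II). The counts over all genes that follow come instead from the alternatives that kept all libraries of the comparison. In MiaPaCa2 the count called ran from 3060 to 5181 for gemcitabine (4747 as reported), 186 to 1710 for genistein (1335) and 1 to 1546 for genistein added (945). In PANC1 it ran from 442 to 2987 for gemcitabine (1272), 0 to 1210 for genistein (10), 574 to 4832 for co-treatment (2897) and 0 to 1188 for genistein added (3). It ran from 0 to 94 for the MiaPaCa2 interaction (4), 0 to 4 for that in PANC1 (0), 1334 to 4624 for the gemcitabine difference (2728) and 0 to 384 for the genistein difference (6). Scaling by library size alone moved the median of all genes by 0.107 for gemcitabine in MiaPaCa2, 0.111 for gemcitabine and 0.158 for co-treatment in PANC1 and 0.101 for the gemcitabine difference, and the share of calls that were higher from 50.6% to 66.5%, from 59.7% to 78.6% and from 59.7% to 79.9% in the first 3. A member with an adjusted p above the threshold is not shown to be unchanged.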
